A study of Homo sapiens with 8 samples.

Results

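The secreted WNT antagonists are the 10 genes SFRP1, SFRP2, SFRP4, SFRP5, FRZB, DKK1, DKK2, DKK3, DKK4 and WIF1, chosen by name from the 60649 gene identifiers of the abundance tables, and all of them were found in each of the 8 tables. RNA was measured by polyA RNA-seq in the human colorectal cancer line HCT116 and in UF1hypo cells, a single clone derived from HCT116 in which 1 allele of UHRF1 was disrupted by CRISPR-Cas9. Stable, puromycin-selected pools of each line expressed a lentiviral short hairpin, either a non-silencing control (shScr) or 1 that targets UHRF1 (shUHRF1). Each of the 4 groups has 2 libraries. HCT116 shScr cells thus have both UHRF1 alleles and no knockdown, HCT116 shUHRF1 cells the knockdown alone, UF1hypo shScr cells the clonal deficiency alone, and UF1hypo shUHRF1 cells both. Nothing in the labels says that the libraries of a group came from separate cultures, so p-values measure the spread between these libraries, which may be technical, and effects of the deficiency cannot be told apart from other features of the clone.

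WNT ligands bind Frizzled receptors together with the co-receptors LRP5 and LRP6, which stops the destruction complex from degrading beta-catenin and lets it switch on target genes with TCF factors. Secreted frizzled-related proteins (SFRP1, SFRP2, SFRP4, SFRP5 and FRZB) and WIF1 bind WNT ligands outside the cell, whereas the Dickkopf proteins DKK1, DKK2 and DKK4 bind LRP5 and LRP6. DKK3 is a divergent family member. Several of these genes are known to carry promoter DNA methylation in colorectal cancer, UHRF1 is the factor that guides the maintenance methyltransferase DNMT1 to newly replicated DNA, and HCT116 cells hold a stabilising mutation of beta-catenin that acts below the receptors. DNA methylation was not analysed here.

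Depth, as aligned bases recovered from coverage and FPKM, lay between 5.42 and 7.83 gigabases per library (median 5.90 for HCT116, 7.27 for UF1hypo). The TPM of UHRF1, an abundance scaled for gene length and to an equal total in each library, was 87.5 and 98.4 with shScr and 31.7 and 32.7 with shUHRF1 for HCT116. For UF1hypo it was 47.3 and 50.6 with shScr and 34.1 and 21.1 with shUHRF1. By the test described below, UHRF1 itself was not called in either knockdown, with a log2 change of -1.50 in HCT116 (limma, adjusted p = 0.0564) and -0.84 in UF1hypo (limma, adjusted p = 0.0406). It was called in 6 of 22 alternatives in HCT116, with adjusted p from 2.34e-05 to 0.608, and in 2 of 23 in UF1hypo. The UF1hypo value moved between -1.17 and -0.51 when each library was left out, and the effects of the lines differed by 0.66 (limma, adjusted p = 0.316). These values are RNA only. The paper examined UHRF1 protein by western blot and reported that knockdown sharply lowered what remained in UF1hypo. Replicates correlated with Pearson's r between 0.956 and 0.992 across genes, and the lowest value was that of UF1hypo shUHRF1, whose replicates differed along the GC content of transcripts (Spearman's rho 0.814 across genes, which are not independent). The UF1hypo shScr replicates differed along it in the other direction (rho -0.508), against -0.042 and -0.068 in the HCT116 groups. Of 10 colon epithelium markers 6 exceeded a TPM of 1. Their summed TPM was 4354 to 4408 in HCT116 shScr, 5485 to 5604 in HCT116 shUHRF1, 8812 to 9086 in UF1hypo shScr and 9857 to 12706 in UF1hypo shUHRF1, led by the keratins KRT8, KRT18 and KRT19. EPCAM, another of the 6, went the other way. Its TPM was 363 and 372 with shScr and 302 and 311 with shUHRF1 for HCT116, and for UF1hypo 357 and 327 with shScr and 174 and 314 with shUHRF1. CDH1, also among the 6, went from 42.3 and 42.7 with shScr to 37.9 and 35.4 with shUHRF1 for HCT116. For UF1hypo it went from 58.7 and 52.8 to 102 and 112. The summed TPM of 10 fibroblast markers was 21.3 to 29.0 in the first 3 groups and 45.5 to 72.9 in UF1hypo shUHRF1. COL1A1 reached 65.5 there. From UF1hypo shScr to UF1hypo shUHRF1, THY1 went from 0.114 and 0.0316 TPM to 5.72 and 4.93. FAP went from 0 and 0.102 to 0.978 and 2.27. The means of COL3A1 (0.143 to 0.106) and DCN (0.0158 to 0.0136) went the other way. LUM and POSTN were listed at 0 in all 8 libraries. Of 5 endothelial and 5 leukocyte markers none exceeded 1, and their sums reached 0.626 and 1.48. The part of these marker differences in the results below was not tested.

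Promoter sequence from RefSeq (GRCh38.p14) was at hand for 6 of the 10 genes. SFRP1, DKK2, DKK3 and DKK4 were absent from the promoter set used, which does not say that RefSeq lacks them. The 6 are shown because CG dinucleotides are the sites at which promoter methylation is maintained. The 250 bases before each RefSeq start site are printed 5′ to 3′ on the strand of the gene, with every CG in capitals. DKK1 (chr10:52314031-52314280, plus strand) is the expressed member, and the others were low or listed at 0. They are FRZB (chr2:182866638-182866887), SFRP2 (chr4:153789084-153789333), SFRP4 (chr7:37916818-37917067), SFRP5 (chr10:97772000-97772249) and WIF1 (chr12:65121306-65121555), all on the minus strand.
DKK1: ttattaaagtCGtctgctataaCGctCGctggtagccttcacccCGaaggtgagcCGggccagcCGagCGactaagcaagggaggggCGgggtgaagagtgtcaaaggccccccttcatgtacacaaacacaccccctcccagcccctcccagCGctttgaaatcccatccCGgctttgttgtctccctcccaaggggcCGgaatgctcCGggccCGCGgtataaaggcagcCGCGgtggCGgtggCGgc
FRZB: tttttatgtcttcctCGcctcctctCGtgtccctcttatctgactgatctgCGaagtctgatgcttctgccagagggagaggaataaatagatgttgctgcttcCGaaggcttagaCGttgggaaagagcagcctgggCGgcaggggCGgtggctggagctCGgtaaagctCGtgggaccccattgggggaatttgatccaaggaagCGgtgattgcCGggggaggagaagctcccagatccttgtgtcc
SFRP2: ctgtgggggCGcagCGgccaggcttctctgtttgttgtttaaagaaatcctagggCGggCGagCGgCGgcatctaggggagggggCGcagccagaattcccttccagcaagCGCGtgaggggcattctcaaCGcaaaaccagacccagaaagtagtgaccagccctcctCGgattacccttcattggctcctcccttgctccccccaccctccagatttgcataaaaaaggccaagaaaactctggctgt
SFRP4: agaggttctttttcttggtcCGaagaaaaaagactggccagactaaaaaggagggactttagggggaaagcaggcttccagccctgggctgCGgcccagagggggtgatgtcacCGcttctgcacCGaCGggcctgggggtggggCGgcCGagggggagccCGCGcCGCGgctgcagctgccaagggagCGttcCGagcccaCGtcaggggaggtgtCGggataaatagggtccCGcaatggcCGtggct
SFRP5: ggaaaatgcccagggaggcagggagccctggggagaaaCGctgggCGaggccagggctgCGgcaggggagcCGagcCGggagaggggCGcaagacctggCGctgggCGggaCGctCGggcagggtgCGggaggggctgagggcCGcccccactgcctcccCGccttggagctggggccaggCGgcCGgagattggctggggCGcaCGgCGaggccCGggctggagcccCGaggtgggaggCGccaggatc
WIF1: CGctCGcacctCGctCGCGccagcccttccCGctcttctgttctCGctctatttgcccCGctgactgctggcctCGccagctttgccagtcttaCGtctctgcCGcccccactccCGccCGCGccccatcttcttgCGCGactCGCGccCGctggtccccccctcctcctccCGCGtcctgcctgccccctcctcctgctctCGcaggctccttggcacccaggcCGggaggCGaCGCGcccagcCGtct

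The number of CG dinucleotides in these windows was 27 in WIF1, 21 in SFRP5, 18 in DKK1, 17 in SFRP4 and 11 each in FRZB and SFRP2. Over 21598 promoters of protein-coding genes the median was 17, with quartiles of 5 and 26, and only WIF1 lay outside these quartiles. The expressed DKK1 had fewer CG than WIF1 and more than SFRP2, both of which were listed at 0. These windows end at the start site and leave out any CG beyond it. Whether the counts relate to expression was not tested. The letters TATAAA, searched on both strands, were found in the DKK1 window, 30 bases before the start site on the strand of the gene, and in none of the other 5 windows. They occur on either strand in 8.98% of all promoters of this length. The SFRP4 start site of RefSeq lies inside the longer gene model of the tables, which reaches from 37905932 to 38025695 on chromosome 7.

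DKK1 dominated the family in every library. DKK1 (ENSG00000107984.10; chromosome 10, 52314281 to 52318042 on the plus strand, 4 exons), an inhibitor that binds LRP5 and LRP6 and is itself a known beta-catenin target, had a TPM of 600 and 611 in HCT116 shScr and 502 and 464 in HCT116 shUHRF1. In UF1hypo it was 1101 and 1050 with shScr and 681 and 842 with shUHRF1. The 4 groups did not overlap, in the order UF1hypo shScr, UF1hypo shUHRF1, HCT116 shScr and HCT116 shUHRF1 from high to low. The share of all genes that separate in this way was not computed, and DKK1 was not called in any comparison below. DKK1 ranked between 104 and 255 among protein-coding genes by TPM and held between 94.7% and 99.9% of the summed TPM of the 10 members. Its exons overlap those of PRKG1-AS1 on the other strand by 227 bases, and that transcript had a TPM between 1.43 and 4.05.

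DKK4 was the member with the highest level after DKK1, in UF1hypo shUHRF1 alone. DKK4 (ENSG00000104371.5; chromosome 8, 42374063 to 42377229 on the minus strand, 4 exons), another Dickkopf inhibitor of LRP5 and LRP6, was listed at 0 and 0.119 TPM in HCT116 shScr and at 0.365 and 0.431 in HCT116 shUHRF1. It was at 0.0822 and 0.406 in UF1hypo shScr and at 34.5 and 30.6 in UF1hypo shUHRF1. Both UF1hypo shUHRF1 libraries thus lay far above the other 6, which overlapped between the lines. The gene has a single transcript in the tables, so its coverage could be turned into aligned bases. There were 100279 and 82548 aligned bases in UF1hypo shUHRF1, against 245 and 1152 with shScr in the same line. The HCT116 line gave 1125 and 947 with shUHRF1 and 0 and 300 with shScr. The ratio of the UF1hypo means, 133, therefore has a denominator that rests on very few bases.

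SFRP1, a frizzled-related protein that binds WNT ligands, was close to 0 outside UF1hypo shUHRF1. SFRP1 (ENSG00000104332.12; chromosome 8, 41261962 to 41309473 on the minus strand, 3 exons) was listed at 0 in 5 libraries, both HCT116 shScr, both UF1hypo shScr and 1 of HCT116 shUHRF1. The other HCT116 shUHRF1 library had 0.0264 TPM, and UF1hypo shUHRF1 had 0.704 and 1.29. It is among the genes that the study singled out from these libraries, so its direction is not independent evidence.

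FRZB, also known as SFRP3, was low and present in all libraries. FRZB (ENSG00000162998.5; chromosome 2, 182833275 to 182866637 on the minus strand, 6 exons) stood at 0.612 and 0.811 TPM with shScr and at 0.651 and 0.795 with shUHRF1 in the HCT116 line. The UF1hypo line gave 0.510 and 0.967 with shScr and 1.34 and 2.03 with shUHRF1. The first 3 groups overlapped, and the fourth lay above them. Between 3776 and 16109 aligned bases stood behind these values.

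DKK3 (ENSG00000050165.19; chromosome 11, 11956207 to 12009769 on the minus strand) was at 0 and 0.0573 TPM with shScr and 0 and 0.0676 with shUHRF1 in the HCT116 line. The UF1hypo line gave 0 and 0.0414 with shScr and 1.32 and 0.253 with shUHRF1. The replicates of the last group differed widely in TPM, but their gene coverage was 0.239 and 0.260. The gene has 17 transcripts in the annotation, over which the abundance is summed. Its exons overlap those of USP47 on the opposite strand by 5681 bases, and USP47 had a TPM between 6.89 and 14.2. The part of these overlapping reads in the DKK3 value was not tested.

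The other 5 members never exceeded a TPM of 1. SFRP5 (chromosome 10, 97766751 to 97771999) was at 0.443 and 0.150 TPM with shScr and 0.293 and 0.481 with shUHRF1 in the HCT116 line. It was at 0.0763 and 0 with shScr and 0.140 and 0.0701 with shUHRF1 in the UF1hypo line. The lowest HCT116 value, 0.150, rested on 791 aligned bases, and the highest UF1hypo value, 0.140, on 854. No difference between the lines is therefore read from SFRP5. SFRP4 had 0.0629 and 0.126 in UF1hypo shScr and was listed at 0 in the other 6 libraries. SFRP2, DKK2 and WIF1 were listed at 0 in all 8 libraries, which says only that no abundance was assigned to them.

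**Figure D1:**
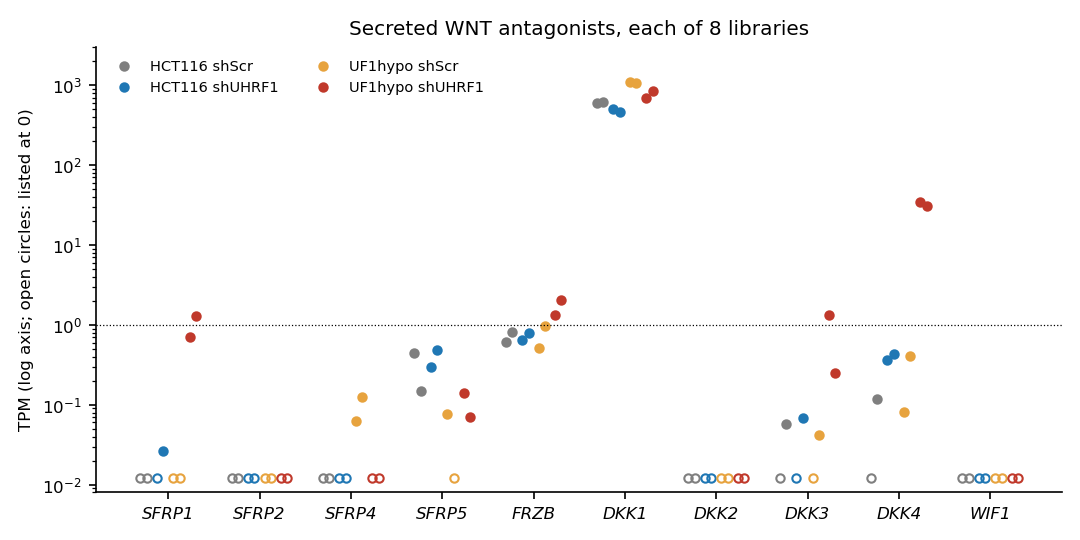
TPM of the 10 secreted WNT antagonists on a log axis in each of the 8 libraries, coloured by group, with open circles for values listed at 0 and a dotted line at 1 TPM. DKK1 lies between 464 and 1101 in all libraries, and DKK4 exceeds 30 in UF1hypo shUHRF1 only.

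**Figure D2:**
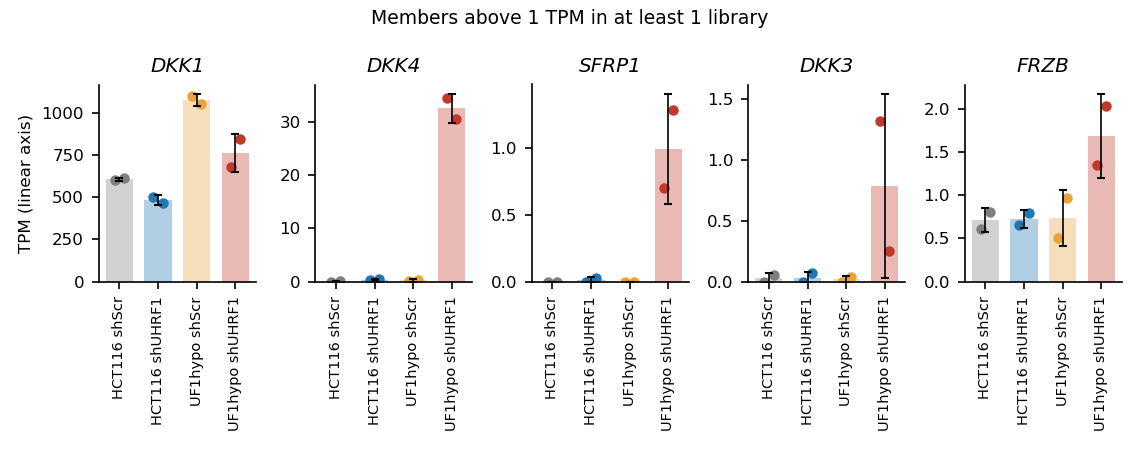
TPM of the 5 members that exceeded 1 in at least 1 library, on linear axes from 0, with points for libraries, bars for group means and error bars for the SD (n = 2). DKK1 is the only member with a high level in the control groups.

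Knockdown of UHRF1 in UF1hypo cells addressed whether the antagonists respond when the remaining UHRF1 is depleted. Fold changes are differences of mean log2(TPM + 1), fitted with limma over all 8 libraries, and they understate the change of low genes. Tests were restricted to genes above 1 TPM in 1 or more of the libraries compared. Calls needed an adjusted p (Benjamini-Hochberg) under 0.05 together with a log2 fold change beyond 1 in either direction. For 1 gene, 2 libraries against 2 are too few for an exact permutation test to reach that threshold. Of the 10 members 5 were tested and 1 was called, DKK4, against 8.53% called among all 13620 genes tested. DKK4 rose by 4.76 on the log2 scale (limma, SE 0.215, adjusted p = 6.89e-06).

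The other 4 tested members were not called. SFRP1 had a log2 fold change of 0.98 (limma, SE 0.207, adjusted p = 0.0169), just under the fold-change threshold. DKK3 had 0.74 (SE 0.283, adjusted p = 0.131) and FRZB 0.63 (SE 0.230, adjusted p = 0.114). Over the alternatives DKK3 ranged from 0.38 to 2.58, FRZB from 0.18 to 1.12 and SFRP1 from 0.51 to 3.401. DKK1 had -0.51 (SE 0.141, adjusted p = 0.0493), with a 95% interval from -0.83 to -0.18 that lies inside the fold-change threshold. Over the alternatives its adjusted p ranged from 0.00293 to 0.295. Both knockdown libraries lay above both controls for DKK4, SFRP1, DKK3 and FRZB and below them for DKK1, while 30.6% of all genes tested had both libraries above and 18.3% both below. DKK4, SFRP1, DKK3 and FRZB passed the TPM filter only through UF1hypo shUHRF1, so these separations are no support for a change of the family. SFRP1 would be called with a pseudocount of 0.1 (3.401) and without replicate 1 of UF1hypo shUHRF1 (1.19), and DKK3 without replicate 2 of that group (1.19).

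Knockdown of UHRF1 in HCT116 cells left only DKK1 to test. DKK1 had a log2 fold change of -0.33 (limma, SE 0.142, adjusted p = 0.769), with both knockdown libraries below both controls, as in 29.3% of all genes tested, and 0 of 1 members tested was called against 0.0708% of 12704 genes. The unadjusted p of DKK1 was 0.0477, and 810 genes had an unadjusted p below 0.05. The levels of DKK4 in HCT116 shUHRF1, given above, stayed under 1 TPM.

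The knockdown effects of both lines were compared directly by an interaction contrast. It was called for 1 of 5 members, DKK4, while 5.09% of all 13781 genes tested were called. Since 4 of these 5 members, DKK4 among them, entered the test only through UF1hypo shUHRF1, nothing about the family is read from this count. Its effect was larger in UF1hypo by 4.36 on the log2 scale (limma, SE 0.305, adjusted p = 0.000211). For SFRP1 the difference was 0.96 (SE 0.293, adjusted p = 0.113), and for DKK1 it was -0.18 (adjusted p = 0.718) with a 95% interval from -0.63 to 0.28. When each library was left out, the DKK1 difference ranged from -0.33 to -0.027. DKK3 and FRZB gave 0.73 (adjusted p = 0.391) and 0.62 (adjusted p = 0.372).

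UF1hypo shScr was compared with HCT116 shScr to describe the deficient clone before knockdown. DKK1, the 1 member tested, had a log2 fold change of 0.83 (limma, SE 0.142, adjusted p = 0.0127) and a 95% interval from 0.51 to 1.15. It was not called, because the fold change was under the threshold, against 3.54% called of 12856 genes. The ratio of the mean TPM was 1.78. The comparisons of groups share control libraries, so that a high DKK1 value in UF1hypo shScr enters both this comparison and the knockdown in UF1hypo with opposite signs.

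**Figure D3:**
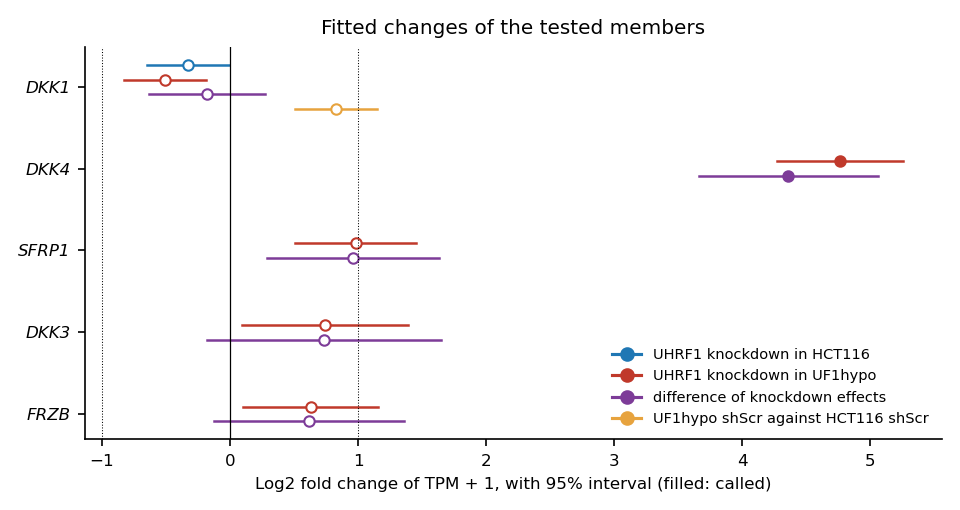
Log2 fold change of TPM + 1 with its 95% interval for the 5 tested members in each comparison, with filled points for called changes and dotted lines at the fold-change threshold. Only DKK4 is called, at 4.76 for the knockdown in UF1hypo and 4.36 for the difference between the lines.

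The receptors through which Dickkopf proteins act were expressed in all libraries and not called in any comparison. LRP5, a WNT co-receptor, ranged from 50.2 to 107.7 TPM, and LRP6, its paralogue, from 8.69 to 11.8. KREMEN1 and KREMEN2, which bind Dickkopf proteins together with LRP6, ranged from 22.2 to 37.0 and from 20.9 to 40.9. For KREMEN1 the knockdown in UF1hypo gave -0.53 (limma, SE 0.170, adjusted p = 0.0769). For KREMEN2 the comparison of UF1hypo shScr with HCT116 shScr gave 0.74 (limma, SE 0.178, adjusted p = 0.0522), with 40.1 and 40.9 TPM against 25.9 and 22.0. The range of LRP5 was set by the UF1hypo shUHRF1 libraries, which gave 107.7 and 50.2.

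The other WNT pathway genes, 88 in all from lists of ligands, receptors, inhibitors, transducers and targets, were described in the same fit. In UF1hypo knockdown 10 of 69 tested rose and 4 fell, with a median log2 fold change of 0.09 against 0.04 over all genes tested. Of all genes tested in this comparison 8.53% were called, 1007 higher and 155 lower. LGR6, IGFBP4, TRABD2B and WNT5B, which are among the 10, passed the TPM filter only through UF1hypo shUHRF1. The total of 14 called in either direction became 8 with the 4 UF1hypo libraries alone, with FPKM or with library weights, and 10 to 17 when each library was left out. In HCT116 knockdown 0 of 64 were called, where 0.0708% of all 12704 genes were. WNT7B, a WNT ligand named after its values were seen, had -1.25 there (limma, adjusted p = 0.0590), from 12.04 and 10.89 TPM to 4.33 and 4.12, and was called in 6 of 22 alternatives. The interaction contrast was called for 8 of 70, with 5.09% called over all genes, and UF1hypo shScr against HCT116 shScr for 4 of 63, with 3.54% called over all genes. The count for the difference was 14 without replicate 2 of UF1hypo shUHRF1 and 2 without any 1 of the 4 HCT116 or the 2 UF1hypo shScr libraries. That for the control groups was 0 without replicate 1 of HCT116 shScr or replicate 2 of UF1hypo shScr.

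Among 15 WNT ligands tested in UF1hypo knockdown, where 8.53% of all genes were called, 4 rose and 1 fell. WNT11, a ligand of mainly beta-catenin-independent signalling, rose by 2.31 on the log2 scale, from 1.31 and 2.06 TPM to 16.4 and 9.06. WNT9A rose by 1.53, from 15.6 and 13.6 TPM to 52.5 and 36.6. WNT5B, which was under 1 TPM in all other groups, rose by 1.97. WNT10A, the remaining called ligand and outside the rule for named genes, rose by 1.15 and was called in 16 of 23 alternatives. WNT16 fell by 2.19 on the log2 scale, from 77.1 and 73.5 TPM to 13.3 and 18.4, while it was between 162 and 187 in HCT116 libraries. All of these had adjusted p between 0.000123 (WNT16, limma) and 0.0127 (WNT10A, limma).

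Of 13 receptors and co-receptors 1 was called in UF1hypo knockdown, a share near the 8.53% of all genes. It was FZD7, a Frizzled receptor, which fell by 1.01 on the log2 scale (limma, adjusted p = 0.00639), from 20.5 and 22.6 TPM to 10.8 and 9.62, and was called in 17 of 23 alternatives. LGR6, a receptor for R-spondins, rose by 1.16 from 0.0434 and 0 TPM to 1.32 and 1.25, and was called in 17 of 22 alternatives. Among 8 other extracellular or surface inhibitors tested 3 were called, against 8.53% of all genes, and IGFBP4 and TRABD2B entered the test only through UF1hypo shUHRF1. IGFBP4 rose by 2.07 and TRABD2B, a WNT-cleaving protease called in 19 of 22 alternatives, by 1.31, while TPBG fell by 1.29 on the log2 scale. IGFBP4 was at 0 in each UF1hypo shScr library, so its fold change depends on the pseudocount.

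AXIN2, a negative feedback target of beta-catenin, stood at 6.93 and 6.98 TPM with shScr and at 15.4 and 13.0 with shUHRF1 in the HCT116 line. The UF1hypo line gave 3.99 and 4.81 with shScr and 23.1 and 15.9 with shUHRF1. Knockdown libraries lay above controls in both lines, as in 30.6% of all genes tested in UF1hypo. That share was not computed for HCT116. AXIN2 rose in UF1hypo (log2 fold change 1.91, limma, adjusted p = 0.00128), while in HCT116 it had 0.93 (adjusted p = 0.290), and the difference between the lines was 0.98 (adjusted p = 0.146). Of 13 beta-catenin targets tested in UF1hypo 4 were called, against 8.53% of all genes. BAMBI (1.05), EPHB2 (1.03) and AXIN2 rose and CD44 fell by 1.01 on the log2 scale. EPHB2 was called in 8 of 23 alternatives, BAMBI in 15 and CD44 in 18. In HCT116 knockdown BAMBI went from 14.3 and 13.8 TPM to 30.8 and 28.3, a log2 fold change of 1.02 (limma, adjusted p = 0.138) that was called in 5 of 22 alternatives. The effects on BAMBI differed between the lines by 0.025 (limma, adjusted p = 0.977), with a sign that changes with the scaling. EPHB2 had -0.54 in HCT116 knockdown (limma, adjusted p = 0.854), the opposite sign to UF1hypo, and its effects differed by 1.57 (adjusted p = 0.0506). CD44 had -0.38 in HCT116 (limma, adjusted p = 0.850), the same sign as in UF1hypo. LGR5, a target and stem cell marker, was at most 0.105 TPM and was not tested. DKK1, also a known target, had -0.51 in UF1hypo knockdown and was not called, while DKK4 rose by 4.76 there.

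In UF1hypo shScr against HCT116 shScr, NOTUM, a WNT-inactivating enzyme, was higher by 1.43 on the log2 scale (limma, adjusted p = 0.00501). WNT16 (-1.27), MYC (-1.06) and TRABD2A (-1.22) were lower. Of 22 alternatives NOTUM was called in 20, WNT16 in 19, MYC in 18 and TRABD2A in 15. MYC had a TPM of 485 and 493 in HCT116 shScr and 252 and 217 in UF1hypo shScr.

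**Figure D4:**
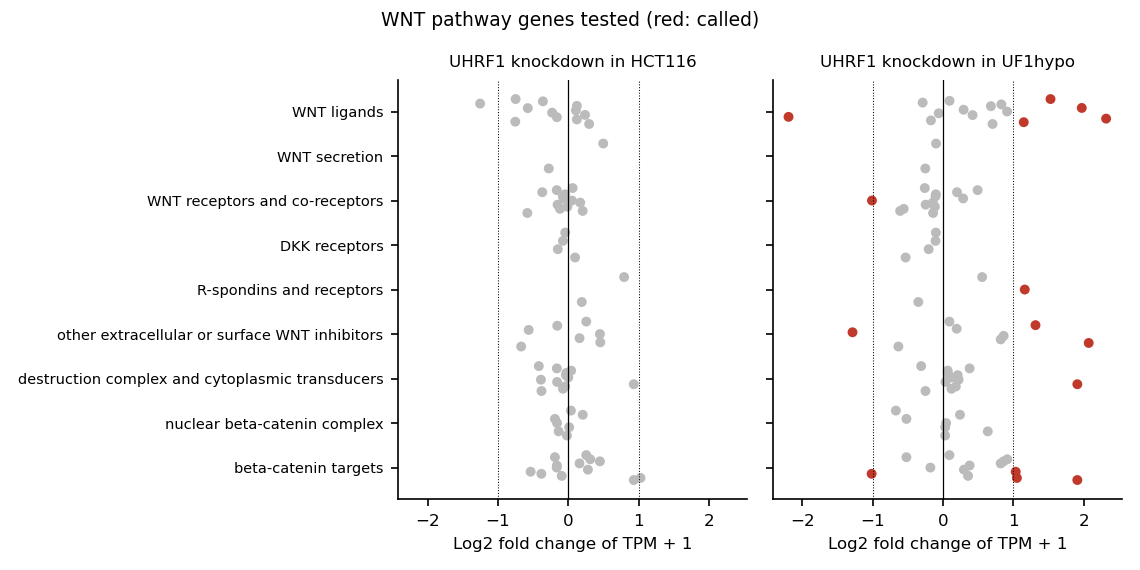
Log2 fold change of TPM + 1 of the tested WNT pathway genes by list, for knockdown in HCT116 and in UF1hypo, with called genes in red and dotted lines at the fold-change threshold. None of 64 genes is called in HCT116, where 0.0708% of all genes are, and 14 of 69 are called in UF1hypo, where 8.53% of all genes are.

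The genes with patterns most like those of the tested members were found by Pearson's r of log2(TPM + 1) over the 8 libraries among 13780 protein-coding genes. They are descriptions, since the 8 points fall into 4 groups. DKK4, SFRP1 and DKK3 exceeded 1 TPM in UF1hypo shUHRF1 only, so genes high in that group alone have a high r with them. DKK4 was closest to FMR1NB, AMIGO1 and SLITRK1 (r of 0.998 each). SFRP1 was closest to IL23R, TSPYL5 and XAGE5 (0.999 to 1.00), and DKK3 to RIPOR3, CES4A and BARX1 (0.994 to 0.996). FRZB was closest to CPED1, C2CD4D and TNFAIP8L2 (0.973 to 0.979), and DKK1 to ANTXR1, S100A14 and PLEKHA2 (0.970 to 0.977).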

How the data were processed

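RNA-seq tables of 8 libraries were analysed. The authors used Fastp for trimming, HISAT2 2.0.4 for alignment (GRCh38) and StringTie 2.1.4 for gene abundance. The deposited coverage is a gene's average read depth per base, without correction for sequencing depth. FPKM as deposited corrects for gene length and aligned bases. TPM as deposited corrects for gene length and sums to 1000000 in a library. The authors ran DESeq2, which needs counts and was therefore not used here.

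Identifiers were matched to GENCODE (60507 of 60649), and 19942 protein-coding genes were kept. Records of 1 identifier were summed. The 4 groups entered a limma 3.58.1 fit (R 4.3.3) on log2(TPM + 1) with a variance trend and 4 residual degrees of freedom, tested on simulated data. The variance trend was fitted on the genes tested in each comparison. A wider set, genes above 1 TPM in any library, had been run first, and the choice between them was made after both results were seen, to follow an earlier analysis of these data. Depth in gigabases was recovered from coverage and FPKM of single-transcript genes, and aligned bases of a gene from coverage times length. Figures used Python 3.11.15, numpy 2.4.6, pandas 2.3.3 and matplotlib 3.10.9.

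The members and lists were chosen with earlier results of these data known. The genes named are the 10 members, UHRF1, the Dickkopf receptors, AXIN2, LGR5, up to 4 called genes of each pathway list per comparison with the largest absolute change, and the 3 genes closest in pattern to each member above 1 TPM. WNT10A and WNT7B fall outside this rule and were named after their values were seen. Marker lists covered colon epithelium, fibroblasts, endothelium and leukocytes. The alternatives were another pseudocount, other filters, all annotated genes, the 4 libraries of a comparison alone, FPKM, quantile normalization, median-ratio scaling, variances with no trend, library weights, the largest record of an identifier, a GC content and length correction, a replicate block, and each library left out. The crossed block was chosen after seeing the data, as was the variance set used for the results in place of the wider one.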

Additional observations from a re-analysis of the deposited data

Results flagged for a closer look

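By a direct test of the difference in limma, the effect of UHRF1 knockdown differed between the cell lines for DKK4, 1 of 5 members tested. It also differed for 8 of 70 other WNT pathway genes tested, while 5.09% of all 13781 genes tested were called. On the log2 scale of TPM + 1, UF1hypo minus HCT116, the difference was 4.36 for DKK4, 2.28 for WNT9A, 2.20 for WNT11, 1.91 for IGFBP4, 1.90 for WNT5B, 1.42 for TRABD2B and 1.35 for LGR6. It was -2.03 for WNT16 and -1.06 for FZD7. DKK4, IGFBP4, WNT5B, TRABD2B and LGR6 exceeded 1 TPM only in UF1hypo shUHRF1 and entered the test through that group alone, so their number is no support for a difference between the lines. DKK4 was called in all 21 alternatives tried (3.55 to 4.998), as were WNT16 and WNT9A. The difference was called in 8 of 20 alternatives for IGFBP4, 9 of 20 for LGR6, 9 of 21 for FZD7, 10 of 20 for TRABD2B, 10 of 21 for WNT5B and 11 of 21 for WNT11. The cause of these differences was not tested.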

How the results depend on the processing

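DKK4 was called in UF1hypo knockdown under all 23 alternatives, with log2 fold changes from 3.75 to 6.75, and DKK1 kept its direction and was not called in any comparison under any alternative. The members called in UF1hypo knockdown were 2 with a pseudocount of 0.1 (DKK4 and SFRP1), and 1 to 2 when each library was left out, for the difference between the lines as well. SFRP1 was added without replicate 1 and DKK3 without replicate 2 of UF1hypo shUHRF1. Where the text below gives no cause, the cause was not tested.

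WNT pathway genes called in HCT116 knockdown were 1 with a pseudocount of 0.1 and 2 with the 4 libraries of the comparison alone, with library weights and with the GC content and length correction. They ranged from 0 to 2 when each library was left out, reaching 2 without either replicate of UF1hypo shUHRF1. In UF1hypo knockdown they were 8 with the 4 libraries alone, with FPKM and with library weights, and 9 with quantile normalization and with the GC content and length correction, against 14, and 10 to 17 when each library was left out. For the difference between the lines they were 5 without a TPM filter, with a mean TPM filter and with FPKM, 4 with library weights, 3 with all annotated genes and 2 with quantile normalization, against 8. Leaving out each library gave 2 to 14, with 14 without replicate 2 of UF1hypo shUHRF1 and 2 without any one of the HCT116 or UF1hypo shScr libraries. For UF1hypo shScr against HCT116 shScr it gave 0 to 6, with 0 without replicate 1 of HCT116 shScr or replicate 2 of UF1hypo shScr, and 6 without replicate 1 of UF1hypo shUHRF1.

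The labels do not say that a replicate number marks a shared culture, and the replicate differences of shScr and shUHRF1 correlated across genes at 0.055 in HCT116 and -0.402 in UF1hypo. With the replicate block, members called stayed at 1 in UF1hypo knockdown, and the pathway genes called for the difference between the lines were 5. With the numbers crossed in UF1hypo, chosen after seeing the data, 1 member and 14 pathway genes were called there. The variance set used here was adopted after both it and the wider set, run first, had been seen, and the wider set called 10 genes in HCT116 knockdown against 9 and the same number, 1162, in UF1hypo.

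Among the named genes, for which alternatives were computed, those that changed direction had not been called in the comparison concerned. In UF1hypo shScr against HCT116 shScr, LRP5 was -0.014 and LRP6 0.24 with the GC content and length correction, and LRP6 was 0.00812 with median-ratio scaling. LRP6 in HCT116 knockdown was 0.038 with the GC content and length correction. TRABD2A in UF1hypo knockdown was -0.013 with quantile normalization. The difference between the lines for BAMBI was -0.0244 with FPKM, -0.0768 with median-ratio scaling, -0.095 with quantile normalization and -0.0965 with the GC content and length correction. With each library left out, LRP5 ranged from -0.65 to 0.44 in UF1hypo knockdown, from -0.57 to 0.51 for the difference, and from -0.021 to 0.37 between the control groups. LRP6 ranged from -0.24 to 0.15 in HCT116 knockdown, from -0.26 to 0.14 for the difference, and from -0.12 to 0.056 between the control groups. KREMEN1 in HCT116 knockdown ranged from -0.051 to 0.24, and KREMEN2 for the difference from -0.19 to 0.084. BAMBI ranged from -0.21 to 0.26 for the difference and from -0.28 to 0.18 between the control groups. MYC for the difference ranged from -0.12 to 0.095. In HCT116 knockdown NOTUM ranged from -0.016 to 0.33, TRABD2A from -0.38 to 0.065 and WNT11 from -0.093 to 0.33. TRABD2A in UF1hypo knockdown ranged from -0.026 to 0.41. Where a group was left with 1 library, that library was assumed to vary like the other groups.

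The tables hold no counts, so low values carry an unknown counting error, and values listed at 0 give no upper limit. With 2 libraries per group, a change under the threshold does not show that a gene did not respond.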
